A study of Mus musculus with 14 samples.

Results

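The genes described here encode the machinery with which mast cells and basophils sense allergen and release histamine and lipid mediators. They were taken by symbol from the tables of read counts per gene, and all 10 listed symbols were found among the 55367 gene symbols of each table: Fcer1a, Ms4a2, Il1rl1, Cd200r3, Hdc, Slc18a2, Hpgds, Ltc4s, Alox5 and Alox5ap. All 10 also passed the expression filter in both experiments.

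Polyadenylated RNA was sequenced from primary mouse bone marrow cells that were lineage-negative, meaning depleted of mature blood cells, and of wild-type genotype. In the first experiment the cells were transduced with a pSMAL lentivirus carrying luciferase (control, 3 libraries) or SETBP1D868N (3 libraries), a mutant form of the nuclear protein SETBP1. In the second experiment all cells, controls included, were, by their labels, transduced with the SETBP1D868N virus and then treated for 4 days with the solvent DMSO (4 libraries) or with 2.5 µM PF-9363 (4 libraries), an inhibitor of MYST lysine acetyltransferases. All cultures were grown in IMDM with FBS, glutamine and antibiotics plus the cytokines SCF, IL6 and IL3. The strain, age and sex of the mice, and any untransduced cells left in the cultures, are not stated in the labels. Neither do they say whether replicates came from separate mice or cultures, so the p-values below measure the spread between these libraries, which may be technical.

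In mast cells and basophils, IgE is held at the surface by a high-affinity receptor made of an IgE-binding alpha chain (Fcer1a), a signal-amplifying beta chain (Ms4a2) and the shared gamma chain Fcer1g. Cross-linking of IgE by antigen releases stored histamine, which Hdc makes from histidine and Slc18a2 (VMAT2) pumps into granules. It also starts the synthesis of lipid mediators from arachidonic acid: Alox5 with its helper protein Alox5ap (FLAP) makes leukotriene A4, Ltc4s conjugates it to glutathione, and Hpgds makes prostaglandin D2. Il1rl1 (ST2), the receptor for IL-33, and Cd200r3, an activating receptor, are further surface proteins of these cells. SCF, the ligand of KIT, and IL3 are the cytokines on which mast cells and basophils grow in culture.

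Libraries of the SETBP1-D868N comparison held 60147266 to 68730322 counts each, those of the PF-9363 comparison 7083731 to 10359093. A count of 0 allowed at most 0.0436 to 0.0499 CPM (counts relative to the scaled library total) and 0.290 to 0.424 CPM, respectively, by counting error alone. The mouse gene Setbp1 had 5, 6 and 6 counts with luciferase and 23, 20 and 24 with SETBP1-D868N, but 2, 1, 0 and 0 with DMSO and 0 in all PF-9363 libraries, which is 0.0872 CPM with luciferase, 0.345 with SETBP1-D868N and 0.0776 with DMSO when the libraries of a group are pooled. The DMSO libraries thus did not show the higher Setbp1 counts of the SETBP1-D868N libraries. Whether reads of the transgene are counted under this symbol is not given in the sources used here, and that the cells of the second experiment carried it rests on the labels alone. Marker genes were read beside the labelled cell type but do not settle it. Kit was present at 180.5 ± 2.81 CPM with luciferase and 69.8 ± 5.89 with DMSO, and Cd34 at 67.5 ± 2.33 and 24.0 ± 0.598. Kit is also on the list of mast cell markers used below, so it does not tell progenitors from mast cells. Of the other stem and progenitor markers, Procr had 1, 2, 4 and 0 counts with DMSO and Slamf1 2, 4, 10 and 4. With DMSO, Flt3 was at 1.69 to 3.89 CPM, Ly6a at 7.44 to 11.2 and Cd48 at 28.8 to 42.1. Neutrophil markers were abundant in all groups, with sums of 15797 CPM or more in every library.

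The stretch of DNA just before the start of a gene is shown for 5 of the genes, to set the letters of genes that rose with PF-9363 beside each other. RefSeq promoter windows of build GRCm38.p6 were found for 9 of the 10 genes. The words searched in the 250 bases before the start, on both strands, were AGATAA and TGATAA, the core bound by GATA factors, which read TTATCT and TTATCA on the other strand. The 150 bases before the start are printed 5′ to 3′ on the strand of the gene, with these words in capitals.
Fcer1a, chr1:173227230-173227379, minus strand: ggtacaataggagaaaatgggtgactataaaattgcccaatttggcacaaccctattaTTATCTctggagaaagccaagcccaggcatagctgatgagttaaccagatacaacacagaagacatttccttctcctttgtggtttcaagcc
Ms4a2, chr19:11623720-11623869, minus strand: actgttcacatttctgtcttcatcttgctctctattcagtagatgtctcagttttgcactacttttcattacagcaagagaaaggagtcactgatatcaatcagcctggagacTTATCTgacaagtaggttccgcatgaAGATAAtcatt
Il1rl1, distal of its pair of windows, chr1:40429420-40429569, plus strand: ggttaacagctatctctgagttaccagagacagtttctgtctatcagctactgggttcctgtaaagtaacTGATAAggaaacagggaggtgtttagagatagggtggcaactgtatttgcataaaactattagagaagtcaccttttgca
Cd200r3, chr16:44943528-44943677, plus strand: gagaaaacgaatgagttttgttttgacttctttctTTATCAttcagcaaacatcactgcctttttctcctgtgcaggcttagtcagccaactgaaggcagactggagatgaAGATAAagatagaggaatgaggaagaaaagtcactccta
Alox5, chr6:116461179-116461328, minus strand: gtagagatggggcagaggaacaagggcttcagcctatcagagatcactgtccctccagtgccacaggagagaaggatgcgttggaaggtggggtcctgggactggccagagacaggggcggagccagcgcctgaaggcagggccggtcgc
None of the printed bases lies in an exon of the same gene in the GENCODE M21 annotation of GRCm38. Of the windows not printed, all 150 bases before the start of Hpgds and 84 of those of Ltc4s lie in such an exon. Those of Hdc, chr2:126618679-126618828, lie inside its annotated span. For these genes the RefSeq start used here is thus not the outer end of the annotated gene. The proximal window of Il1rl1, chr1:40439479-40439628, also lies inside its annotated span. For Fcer1a and Slc18a2 the RefSeq start lies outside the annotated span, with stretches from chr1:173227230 and up to chr19:59260877. In that annotation Fcer1a spans chr1:173221284-173227214, Il1rl1 chr1:40429570-40465415, Cd200r3 chr16:44943678-44981380, Ms4a2 chr19:11615523-11623719, Slc18a2 chr19:59260896-59296012, Hdc chr2:126593667-126619299, Hpgds chr6:65117293-65144908, Alox5 chr6:116410077-116461178, Ltc4s chr11:50236461-50238616 and Alox5ap chr5:149264767-149288153.

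Counted over the full 250 bases, the 4 genes for surface proteins each held the word: Ms4a2 3 times, Cd200r3 2 times, Il1rl1 2 times in the distal window and 1 time in the proximal one, and Fcer1a 1 time, at positions -92 to -87. Slc18a2 held it 1 time, at -230 to -225, outside the length printed above. It was not found in the windows of Hdc, Hpgds, Ltc4s and Alox5, and the Alox5 stretch is shown as an example of these. The windows of Hdc, Hpgds and Ltc4s, and the proximal window of Il1rl1, lie at least partly inside the annotated gene, as given above. Of all 32817 promoter windows of the same length, 16.6% held the word at least once and 2.68% at least 2 times. The GC box GGGCGG, searched in the same way, was found in Alox5 at -35 to -30, in Hdc at -48 to -43, in Slc18a2 at 2 places and in the proximal window of Il1rl1, against 32.7% of all windows. An E-box word (CACGTG or CATGTG; 17.6% of all windows) was found in Fcer1a at -208 to -203 and in Hpgds at -80 to -75, and an ETS word (GAGGAAGT or AAGGAAGT; 4.29%) in Hpgds at -49 to -42 and in Ltc4s at -118 to -111. The GATA words are rich in A and T, and the windows of the 4 surface protein genes had a GC content of 37.6% to 46.4%, below the median of 52.4% over all windows, so the share over all windows is not matched for base composition. These matches describe the letters only, and no binding was measured.

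The first comparison asked how the genes differed between cells carrying SETBP1-D868N and cells carrying luciferase. The answer was mixed: by edgeR's quasi-likelihood test at an adjusted p under 0.05, 4 of the 10 genes rose (Ms4a2, Cd200r3, Hdc and Slc18a2), 5 fell (Fcer1a, Il1rl1, Hpgds, Ltc4s and Alox5ap) and Alox5 did not pass. All changes were under 2-fold, and the median log2 fold change of the 10 was -0.20, beside 0.0043 over all 15794 genes tested. Among all genes, 24.5% were called higher and 22.7% lower, and the libraries of the groups did not overlap in 56.7%, which was the case for 9 of the 10 genes here.

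The second comparison asked how the same genes differed after PF-9363. Here 9 of the 10 rose, by 2.15-fold to 8.65-fold, none fell, and Ltc4s did not pass the test; at an unadjusted p under 0.05, and with DESeq2 or limma-voom, the number that fell was also 0. The median log2 fold change was 2.01, beside -0.038 over all 13456 genes tested. PF-9363 moved most genes of these cells, with 36.6% called higher and 39.4% lower, and the groups did not overlap in 70.3% of all genes and in 9 of these 10. The comparisons share no library. The 4 genes that rose with SETBP1-D868N rose again with PF-9363, and 4 of the 5 that fell with it (Fcer1a, Il1rl1, Hpgds and Alox5ap) rose with PF-9363. These are bulk libraries, so fewer cells of a type and less RNA per cell cannot be told apart.

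**Figure D1:**
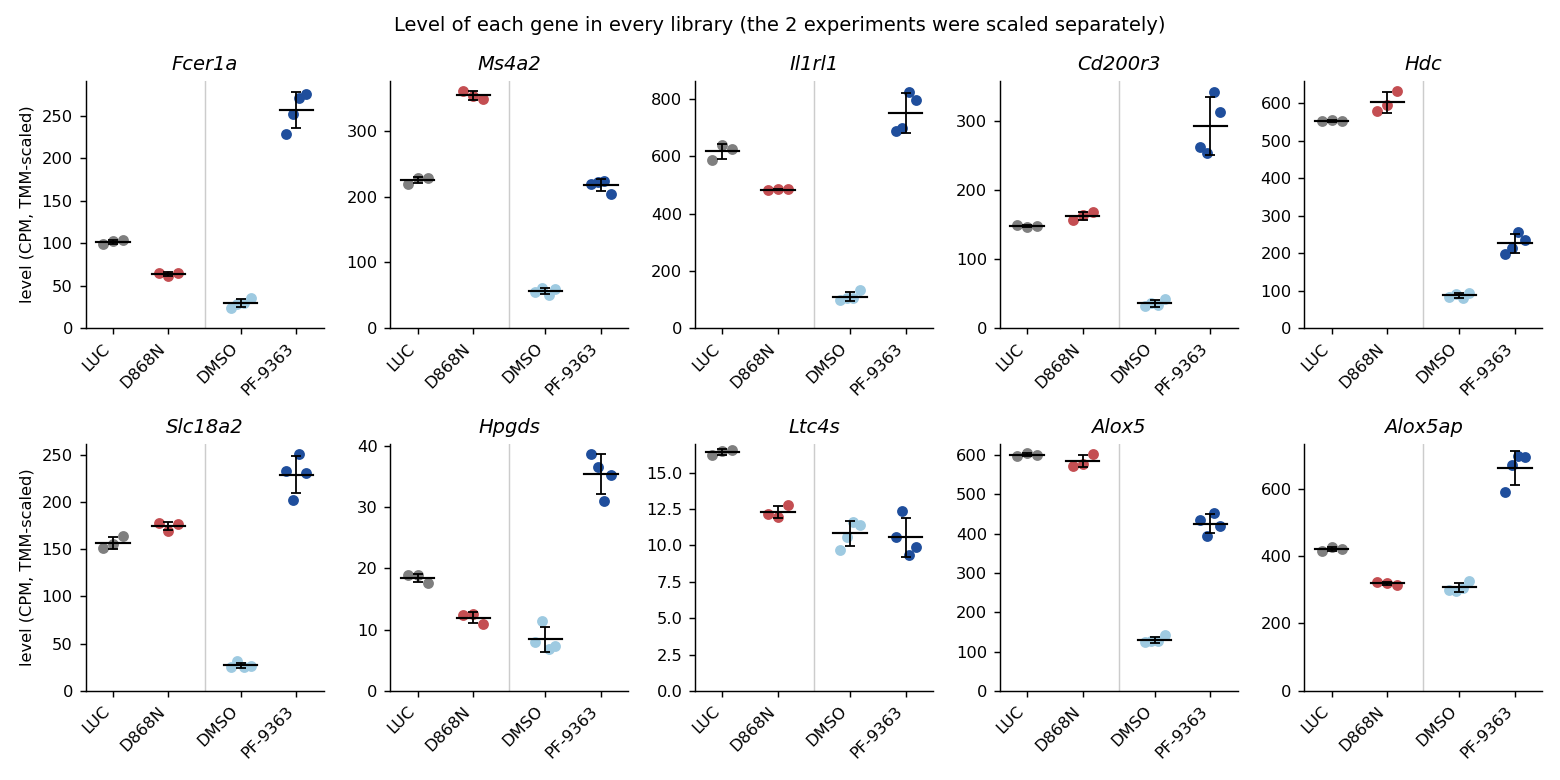
Level of each of the 10 genes (CPM, TMM-scaled, linear axis from 0) in every library, with 1 point per library and the mean and SD of each group, for luciferase (LUC) and SETBP1-D868N (D868N) at the left of each panel and DMSO and PF-9363 at the right; the experiments were scaled separately, so heights compare only within the left or the right side of a panel. The PF-9363 points lie above the DMSO points in every panel but that of Ltc4s, while the D868N points lie above LUC in some panels (Ms4a2) and below in others (Fcer1a).

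The chains of the IgE receptor moved in opposite directions with SETBP1-D868N. Fcer1a, the alpha chain that binds IgE, stood at 99.0, 102 and 104 CPM in the luciferase libraries and at 65.1, 61.1 and 64.6 in the SETBP1-D868N libraries. Every SETBP1-D868N library lay below every control library. The gene fell 1.60-fold (log2 fold change -0.68, SE 0.033, edgeR adjusted p = 3.56e-08). Ms4a2, the beta chain that amplifies the signal, stood at 219.6, 229 and 228 CPM with luciferase and at 360.4, 353 and 348 with SETBP1-D868N. All SETBP1-D868N libraries were the higher ones, and the gene rose 1.57-fold (log2 fold change 0.65, SE 0.026, edgeR adjusted p = 9.09e-09).

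After PF-9363 both chains rose, the alpha chain more than the beta chain. Fcer1a was at 23.7, 28.6, 30.2 and 35.9 CPM in the DMSO libraries and at 228, 252, 271 and 275 in the PF-9363 libraries. The lowest PF-9363 library was thus far above the highest DMSO library. This was an 8.65-fold rise (log2 fold change 3.11, SE 0.098, edgeR adjusted p = 5.54e-16), the largest estimate among the 10 genes. Ms4a2 was at 55.0, 60.5, 50.7 and 59.0 CPM with DMSO and at 219, 222, 224 and 204 with PF-9363. Its groups did not overlap either, and it rose 3.86-fold (log2 fold change 1.95, SE 0.068, edgeR adjusted p = 2.31e-20).

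The third receptor chain, Fcer1g, which carries the signal inward for several Fc receptors, is not among the 10 genes and was read from the list of IgE receptor signalling genes. It fell with SETBP1-D868N from 330.5 ± 5.95 (SD, n = 3) to 267 ± 4.48 CPM (log2 fold change -0.31, SE 0.025, edgeR adjusted p = 1.54e-06). With PF-9363 it rose from 205 ± 13.4 (SD, n = 4) to 675 ± 50.4 CPM (log2 fold change 1.72, SE 0.066, edgeR adjusted p = 2.05e-19). The alpha and gamma chains thus fell and the beta chain rose with SETBP1-D868N, and all of them rose with PF-9363.

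Il1rl1 encodes the receptor through which IL-33 activates mast cells and basophils, and a soluble form that binds IL-33 outside the cell; counts per symbol do not separate these forms. It stood at 588, 639 and 627 CPM with luciferase and at 483, 485 and 485 with SETBP1-D868N. The SETBP1-D868N libraries were almost equal to each other and all below the control libraries, a fall of 1.28-fold (log2 fold change -0.35, SE 0.030, edgeR adjusted p = 2.08e-06). In the second experiment the DMSO libraries were at 96.9, 107, 104 and 132 CPM and the PF-9363 libraries at 689, 698, 827 and 796. No PF-9363 library came near the DMSO range, and the rise was 6.84-fold (log2 fold change 2.77, SE 0.090, edgeR adjusted p = 1.52e-15).

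Cd200r3 encodes a surface receptor of mast cells and basophils that signals through the adaptor Tyrobp (DAP12). It stood at 149, 146 and 148 CPM with luciferase and at 157, 164 and 168 with SETBP1-D868N. The groups were separate but close, with a rise of 1.10-fold (log2 fold change 0.14, SE 0.030, edgeR adjusted p = 0.00201). DMSO libraries were at 32.1, 36.5, 33.1 and 42.3 CPM and PF-9363 libraries at 262, 255, 343 and 314. All PF-9363 libraries were higher, and the rise of 8.14-fold (log2 fold change 3.02, SE 0.11, edgeR adjusted p = 5.22e-12) was among the largest of the 10. Cd200r3 has close relatives in Cd200r2 and Cd200r4, and reads of similar stretches may have been split between them.

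Both histamine genes rose slightly with SETBP1-D868N. Hdc, histidine decarboxylase, the enzyme that makes histamine, stood at 552, 555 and 552 CPM with luciferase and at 579, 597 and 632 with SETBP1-D868N. The control libraries were almost equal and all below the others, and the rise was 1.09-fold (log2 fold change 0.12, SE 0.031, edgeR adjusted p = 0.00563). Slc18a2, the vesicular transporter that loads histamine and other amines into granules, stood at 151, 156 and 164 CPM with luciferase and at 178, 169.8 and 177 with SETBP1-D868N. Its groups were also separate, with a rise of 1.11-fold (log2 fold change 0.16, SE 0.033, edgeR adjusted p = 0.00203).

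With PF-9363 the transporter rose more than the enzyme. Hdc was at 84.1, 91.4, 80.6 and 94.0 CPM in the DMSO libraries and at 198, 215, 257 and 236 in the PF-9363 libraries. Every PF-9363 library was higher, a rise of 2.59-fold (log2 fold change 1.37, SE 0.075, edgeR adjusted p = 2.60e-15). Slc18a2 was at 25.5, 31.4, 25.8 and 25.9 CPM with DMSO and at 233, 202, 250.5 and 231 with PF-9363. The second DMSO library stood above the 3 others, yet far below every PF-9363 library, and the rise was 8.44-fold (log2 fold change 3.08, SE 0.081, edgeR adjusted p = 6.38e-23).

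The lipid mediator genes were the ones that mostly fell with SETBP1-D868N. Alox5, 5-lipoxygenase, which starts leukotriene synthesis, was the exception: it stood at 597, 605 and 600.0 CPM with luciferase and at 573, 578 and 602 with SETBP1-D868N. These ranges overlapped, and the gene did not pass the test (log2 fold change -0.039, SE 0.025, edgeR adjusted p = 0.231), with an interval of 2 SE from -0.089 to 0.011. Alox5ap, the membrane protein that presents arachidonic acid to Alox5, stood at 414, 426 and 422 CPM with luciferase and at 322, 321 and 314 with SETBP1-D868N. Here all SETBP1-D868N libraries were lower, and the gene fell 1.32-fold (log2 fold change -0.40, SE 0.024, edgeR adjusted p = 1.47e-07).

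Ltc4s and Hpgds stand at the branches that lead to leukotriene C4 and prostaglandin D2, and both were expressed at low levels. Ltc4s was at 16.2, 16.5 and 16.6 CPM with luciferase and at 12.2, 11.97 and 12.8 with SETBP1-D868N. The groups were apart, and the gene fell 1.33-fold (log2 fold change -0.42, SE 0.049, edgeR adjusted p = 2.62e-05). Hpgds was at 18.9, 18.8 and 17.7 CPM with luciferase and at 12.3, 12.6 and 10.9 with SETBP1-D868N. Its SETBP1-D868N libraries were likewise all lower, a fall of 1.54-fold (log2 fold change -0.63, SE 0.061, edgeR adjusted p = 5.34e-06).

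After PF-9363 3 of these lipid mediator genes rose and Ltc4s did not. Alox5 was at 124, 127, 127 and 141 CPM with DMSO and at 436, 395, 453 and 419 with PF-9363, a rise of 3.28-fold (log2 fold change 1.71, SE 0.064, edgeR adjusted p = 9.98e-20). Alox5ap was at 298, 298, 306 and 327 CPM with DMSO and at 589, 669, 697 and 693 with PF-9363, a rise of 2.15-fold (log2 fold change 1.11, SE 0.063, edgeR adjusted p = 2.07e-15). For both, each PF-9363 library was above each DMSO library. Hpgds was at 8.03, 11.5, 6.84 and 7.26 CPM with DMSO and at 38.7, 36.5, 31.0 and 35.2 with PF-9363. The groups were again separate, and the rise was 4.23-fold (log2 fold change 2.08, SE 0.14, edgeR adjusted p = 5.07e-14).

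Ltc4s was at 9.72, 10.6, 11.6 and 11.4 CPM with DMSO and at 10.6, 12.4, 9.34 and 9.87 with PF-9363. The ranges overlapped from end to end, and the test did not pass (log2 fold change -0.038, SE 0.14, edgeR adjusted p = 0.820). The interval of 2 SE ran from -0.33 to 0.25, which does not reach the rise of any other of the 10 genes. The values rest on 98, 106, 124 and 126 counts with DMSO and on 103, 96, 60 and 91 with PF-9363. The sign of this small difference turned without PF-9363 replicate 3 (0.020) or without PF-9363 replicate 4 (0.0045), in both cases short of the threshold.

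**Figure D2:**
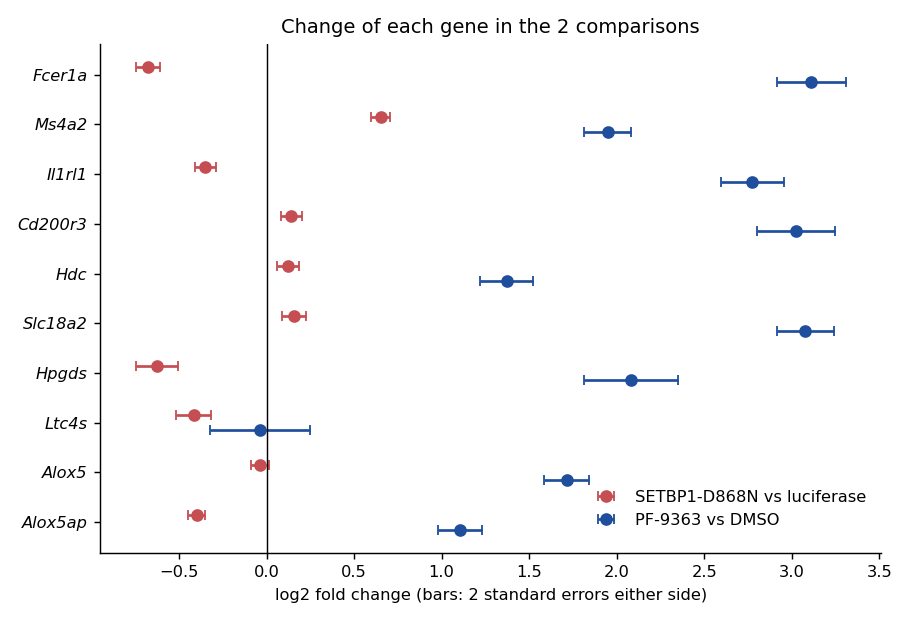
Log2 fold change of each gene (points, bars 2 SE to either side) with SETBP1-D868N against luciferase and with PF-9363 against DMSO; the vertical line marks no change. The changes with SETBP1-D868N lie between -0.68 and 0.65, on both sides of the line, and those with PF-9363 between 1.11 and 3.11 except for Ltc4s at -0.038.

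Ratios of read counts within a library do not depend on the scaling between libraries, and they were formed for 4 pairs of genes that work together; the pairs were chosen after the values were seen. The ratio of Fcer1a to Ms4a2 was 0.451, 0.448 and 0.455 with luciferase and 0.181, 0.173 and 0.186 with SETBP1-D868N. It was thus 2.51-fold lower with SETBP1-D868N and nearly constant within each group. In the second experiment it was 0.431, 0.474, 0.595 and 0.609 with DMSO and 1.04, 1.13, 1.21 and 1.35 with PF-9363. The ratio of alpha chain to beta chain read counts was therefore higher in each PF-9363 library than in each DMSO library, 2.25-fold at the mean. Protein was not measured.

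The ratio of Slc18a2 to Hdc was 0.284 ± 0.0116 (SD, n = 3) with luciferase and 0.291 ± 0.0142 with SETBP1-D868N, with overlapping ranges. It was 0.310 ± 0.0289 (SD, n = 4) with DMSO and 1.02 ± 0.105 with PF-9363, with ranges apart. The ratio of Alox5ap to Alox5 was 0.700 ± 0.00611 with luciferase and 0.546 ± 0.0215 with SETBP1-D868N, and it was 2.37 ± 0.0445 with DMSO and 1.56 ± 0.154 with PF-9363. It was lower in the second group of both comparisons, with no overlap. Ltc4s to Alox5ap gave 0.0391 ± 0.000277 with luciferase and 0.0386 ± 0.00186 with SETBP1-D868N, which overlapped, and 0.0352 ± 0.00219 with DMSO and 0.0160 ± 0.00260 with PF-9363, which did not.

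Over these 8 comparisons of ratios, the exact two-sided permutation test gave p = 0.1 for Fcer1a to Ms4a2 and for Alox5ap to Alox5 with SETBP1-D868N, the smallest p that 3 against 3 libraries allow. The exact permutation test gave p = 0.6 for Slc18a2 to Hdc and p = 0.8 for Ltc4s to Alox5ap there. All 4 ratios reached p = 0.0286 with PF-9363, the smallest that 4 against 4 libraries allow, in this exact permutation test. After Benjamini-Hochberg adjustment over the 8 tests these became 0.133 and 0.0571 at the least, so no ratio passed 0.05 after adjustment. In a family with these numbers of libraries none could have, since the 4 tests with PF-9363 were already at their smallest p. A few of these genes overlap others on the opposite strand: Slc18a2, Ltc4s and Alox5ap share exon bases with Gm29261, Gm26542 and Gm19719, and Hpgds overlaps Gm17147 without sharing exon bases. Whether the counting used strand is not given in the sources used here, so reads of these partners cannot be told apart.

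**Figure D3:**
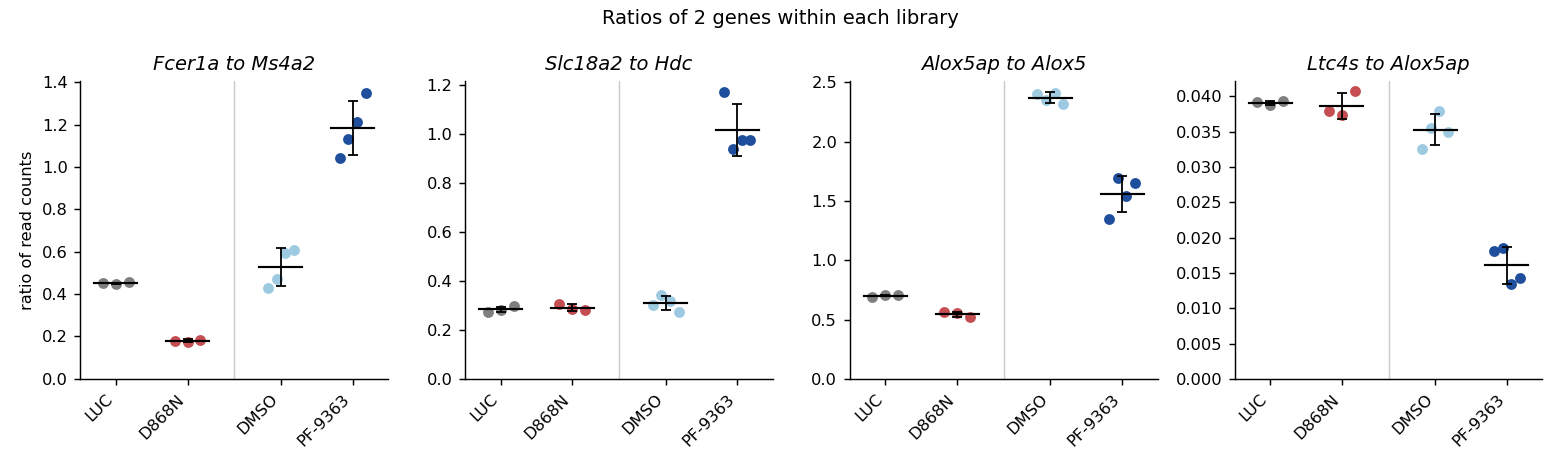
Ratio of the read counts of 2 genes within each library (points) with mean and SD per group, for 4 pairs, on linear axes from 0. Fcer1a to Ms4a2 lies near 0.45 with luciferase and 0.18 with SETBP1-D868N (D868N), and the PF-9363 points lie apart from the DMSO points in all 4 panels.

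Levels of different genes were compared per kilobase of annotated exon (CPM per kb), separately in each group. The length joined the exons of all annotated transcripts of a gene, so the order depends on the annotation. Alox5ap was highest in all 4 groups, at 296 CPM per kb with luciferase, 224 with SETBP1-D868N, 216 with DMSO and 466 with PF-9363, and Hpgds was lowest in all 4, at 2.87, 1.86, 1.31 and 5.50. In CPM not divided by length, Ltc4s was below Hpgds with luciferase (16.4 against 18.5) and PF-9363 (10.5 against 35.4). It was above Hpgds with SETBP1-D868N (12.3 against 11.95) and DMSO (10.8 against 8.40). Fcer1a was the third of the 10 with luciferase (102 CPM per kb), the sixth with SETBP1-D868N (63.8), the third with DMSO (29.7) and the second with PF-9363 (257). Ms4a2 was the sixth with luciferase (80.1 CPM per kb) and the third with SETBP1-D868N (126). Hdc stood above Cd200r3 and Slc18a2 with DMSO, at 13.7 CPM per kb against 6.02 and 5.19, and below both with PF-9363, at 35.5 against 49.1 and 43.8. Neighbours in the order whose ranges over libraries overlapped were Il1rl1 and Hdc with luciferase; Alox5 and Fcer1a, Ms4a2 and Il1rl1, Il1rl1 and Hdc, and Cd200r3 and Slc18a2 with DMSO; and Il1rl1 and Alox5, Cd200r3 and Slc18a2, and Slc18a2 and Hdc with PF-9363. With SETBP1-D868N all neighbours were apart.

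The other genes of the pathways were taken from lists of textbook members. These lists were chosen with earlier results of these data known, so their counts are descriptions. The list counts here and below stand beside the shares over all genes. These were 24.5% called higher and 22.7% lower with SETBP1-D868N, and 36.6% and 39.4% with PF-9363. Of 15 genes of IgE receptor signalling, Fcer1g and 14 genes downstream of the receptor, all tested, 12 fell and none rose with SETBP1-D868N (median log2 fold change -0.22), and 14 rose and none fell with PF-9363 (median 0.83). At an unadjusted p under 0.05 these edgeR counts of 0 stayed at 0, as they did with DESeq2 and limma-voom, while library size alone as the scaling gave 1 rising gene with SETBP1-D868N. With that scaling the rises of Plcg2 and Cblb with PF-9363 were lost (edgeR adjusted p = 0.127 and 0.180). Among the 11 that fell and then rose, Fyn, a Src-family kinase, was at 60.1 to 62.0 CPM with luciferase and 50.4 to 53.8 with SETBP1-D868N (log2 fold change -0.22), and at 11.3 to 13.9 CPM with DMSO and 51.7 to 61.0 with PF-9363 (2.12). Lat2, an adaptor that gathers signalling proteins at the membrane, had log2 fold changes of -0.15 and 1.76. Grap2, an adaptor between Lat and Lcp2, had -0.48 and 2.15, the second on only 1 to 6 counts in the DMSO libraries. Gab2, a scaffold of PI3-kinase signalling, had -0.11 and 1.49; its fall did not pass with library size alone as the scaling (edgeR adjusted p = 0.146) or without luciferase replicate 3 (0.0636).

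Of the 12 genes on the IL-33 receptor side, 11 were tested, with 3 falling and none rising with SETBP1-D868N (median log2 fold change -0.032) and 6 rising and 3 falling with PF-9363 (median 0.57). The share falling was near that over all genes with SETBP1-D868N (22.7%) and below it with PF-9363 (39.4%). With library size alone as the scaling, the first count became 3 rising and 2 falling with a median of 0.017, and the second 6 rising and 5 falling with a median of 0.34; by edgeR without adjustment, DESeq2 or limma-voom the first had 0 rising. Myd88, the adaptor that couples IL-1 family receptors to kinases, had log2 fold changes of -0.22 and 1.42, and the kinase Irak2 had -0.45 and 1.17. Irak4 had -0.10 and 0.62, but its fall was lost in 7 of 14 alternative analyses, with edgeR or DESeq2 adjusted p-values from 0.0508 to 0.264. Sigirr, which restrains signalling by this receptor family, fell with PF-9363 (log2 fold change -1.75, SE 0.17) and Rela, a subunit of NF-kB, rose (0.90, SE 0.067).

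Cytokines that activated mast cells and basophils release followed a similar course. Of 9 listed, 7 were tested in the first experiment, where 4 fell and 1 rose (median log2 fold change -0.24), and all 6 tested in the second rose (median 2.45). Tnf was at 13.1, 14.01 and 13.0 CPM with luciferase and at 12.2, 10.6 and 11.2 with SETBP1-D868N, and at 6.15, 4.89, 7.31 and 6.35 with DMSO and 51.1, 51.9, 48.6 and 48.9 with PF-9363. It was lower and then higher without overlap, with log2 fold changes of -0.24 and 3.02. Il6 had -0.46 and 1.89, Il13 -0.55 and 2.50, and Il4 -0.31 and 2.43, while the chemokine Ccl4 rose in both (0.19 and 2.48). The fall of Il4 was lost without luciferase replicate 1 (edgeR adjusted p = 0.0956) and without SETBP1-D868N replicate 2 (0.0764).

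The relatives of Cd200r3 were read with their ligand and adaptor, of which 5 could be tested with SETBP1-D868N and 4 with PF-9363. Cd200r4, which like Cd200r3 is an activating form, rose in both comparisons, from 127 ± 1.99 to 145 ± 3.94 CPM (log2 fold change 0.20) and from 29.4 ± 3.97 to 269 ± 48.5 CPM (3.19). The inhibitory receptor Cd200r1 (-0.33 and 2.68), Cd200r2 (-0.51 and 3.24, on 0 to 6 counts with DMSO) and Tyrobp (-0.46 and 1.45) fell with SETBP1-D868N and rose with PF-9363. The ligand Cd200 fell with SETBP1-D868N (-1.13) and was too low to test in the second experiment. The medians were -0.46 and 2.94.

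For storage, breakdown, transport and receptors of histamine, 9 of 11 listed genes were tested in the first experiment, with 4 rising and 2 falling (median log2 fold change 0.25), and 7 in the second, with 4 rising and 2 falling (median 1.21). The receptors Hrh4 (-0.69 and 3.19, on 2 to 8 counts with DMSO) and Hrh2 (-0.34 and 1.63) fell with SETBP1-D868N and rose with PF-9363. Hnmt, which inactivates histamine by methylation, went the other way, from 16.3 ± 1.56 to 19.4 ± 1.32 CPM (0.25) and from 30.9 ± 2.00 to 13.0 ± 1.35 CPM (-1.24). Its rise was lost in 3 of the 14 alternatives, without luciferase replicate 2, SETBP1-D868N replicate 2 or SETBP1-D868N replicate 3 (edgeR adjusted p = 0.0604 to 0.0821). Srgn, the core protein of granule proteoglycans that hold histamine, also rose and then fell (0.25 and -0.87). Ndst2, an enzyme of heparin synthesis, rose in both (0.087 and 1.21), but the first of these was lost in 7 of the 14 alternatives, with edgeR or DESeq2 adjusted p-values from 0.0624 to 0.121.

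Of the leukotriene pathway outside of Alox5, Alox5ap and Ltc4s, 12 of 15 tested genes fell with SETBP1-D868N and none rose (median log2 fold change -0.40). Among the 12, the fall of Cysltr2 was lost in 5 of 14 alternatives (edgeR or DESeq2 adjusted p = 0.0503 to 0.0759). Without adjustment of the edgeR p-values 1 gene was higher, with DESeq2 and limma-voom 0, and with library size alone as the scaling 1. With PF-9363 it split, with 8 of 12 tested genes rising and 4 falling (median 0.64). The enzymes that compete with Ltc4s or can take its place were among the 4 that fell. Lta4h, which turns leukotriene A4 into leukotriene B4, was at 616, 553, 620.3 and 697 CPM with DMSO and at 215, 217, 187 and 160.1 with PF-9363. Mgst2, a microsomal glutathione transferase that can also make leukotriene C4, was at 154, 162, 168 and 176 CPM with DMSO and at 51.8, 52.2, 40.2 and 37.2 with PF-9363. All PF-9363 libraries were lower for both genes, while their partner upstream, Alox5, was higher in all. The log2 fold changes with PF-9363 were -1.68 (SE 0.093, edgeR adjusted p = 7.82e-11) and -1.86 (SE 0.092, edgeR adjusted p = 4.82e-14), after -0.14 and -0.37 with SETBP1-D868N. The related Mgst3 had -0.31 and -2.44. Dpep2, a dipeptidase that trims leukotriene D4, had -0.89 and 1.61, and Ltb4r2, a receptor for leukotriene B4, had -0.47 and 2.93, the latter on 7 to 10 counts with DMSO.

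Of the prostaglandin genes around Hpgds, 10 of 13 were tested in the first experiment, with 3 rising and 4 falling (median log2 fold change -0.17), and 9 in the second, with 4 rising and 3 falling (median -0.13). With library size alone as the scaling these became 4 rising and 3 falling, and 3 rising and 5 falling. The rise of Ptges2 with PF-9363 was lost in 5 of 16 alternatives (edgeR adjusted p = 0.0592 to 0.554). Ptgs2, the inducible cyclooxygenase, had log2 fold changes of -0.55 and 1.52, and Ptges, which makes prostaglandin E2, had -0.28 and 1.83; the fall of Ptges was lost in 5 of the 14 alternatives (edgeR adjusted p = 0.0632 to 0.127). Akr1b3, an aldose reductase with prostaglandin synthase activity, had 0.24 and -0.97. Ptges3, a cytosolic prostaglandin E synthase and chaperone, had 0.25 and -0.19, and its fall was lost in 3 of 16 alternatives (DESeq2 or edgeR adjusted p = 0.0773 to 0.142). Hpgd, which breaks prostaglandins down, had 12, 16, 33 and 21 counts with DMSO and 0 in every PF-9363 library.

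**Figure D4:**
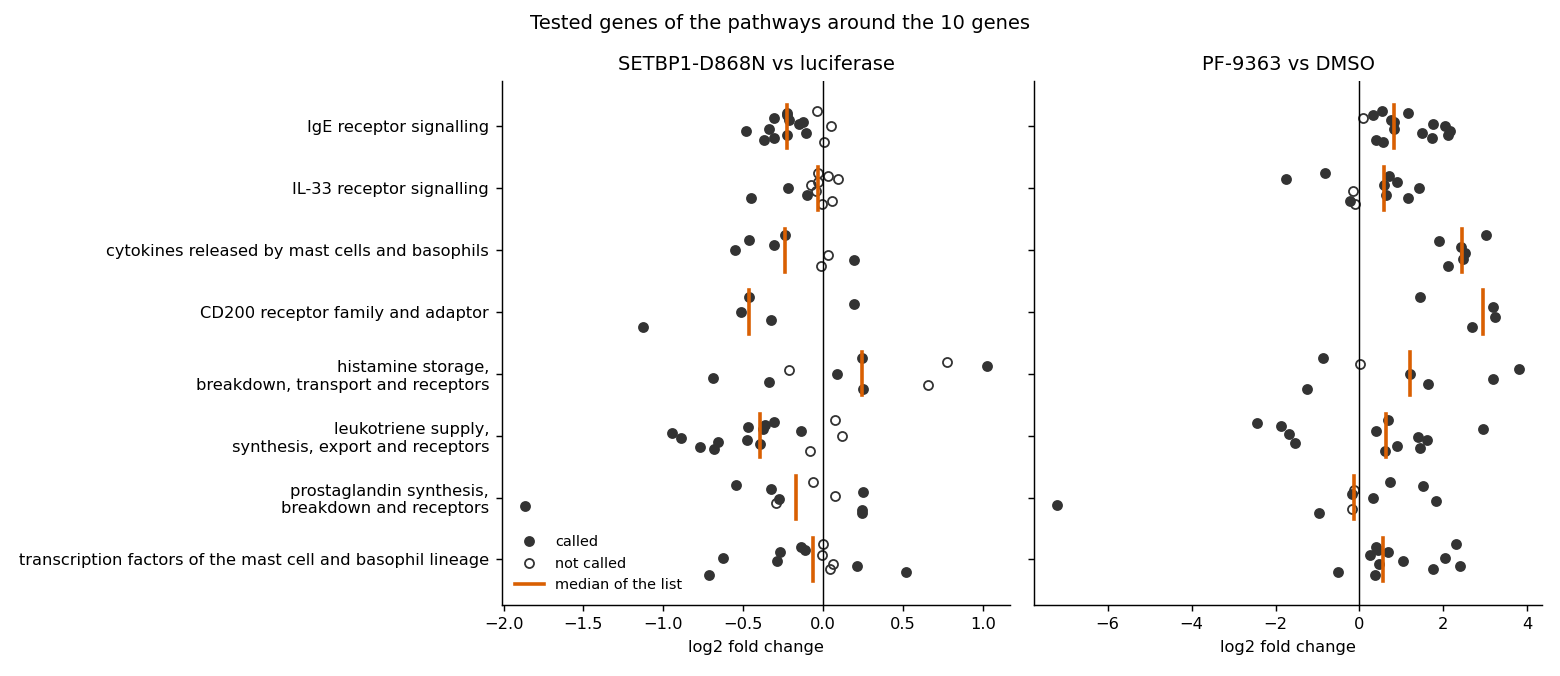
Log2 fold change of each tested gene of the 8 pathway lists (filled points passed the edgeR test at an adjusted p under 0.05, open points did not), with the median of each list as an orange bar, for SETBP1-D868N against luciferase at the left and PF-9363 against DMSO at the right. The axes differ in range. In IgE receptor signalling all filled points lie below 0 at the left and above 0 at the right, while the leukotriene list holds 4 filled points below 0 at the right; the point near -7 is Hpgd, whose PF-9363 libraries all held 0 counts, so its position depends on the fit.

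Of 12 transcription factors of the mast cell and basophil lineage, 2 rose and 6 fell with SETBP1-D868N (median log2 fold change -0.060), and 11 rose and 1 fell with PF-9363 (median 0.57). The fall of Stat5a was lost in 6 of 14 alternatives (edgeR adjusted p = 0.0644 to 0.160). Runx1 lost its rise with PF-9363 with library size alone as the scaling (edgeR adjusted p = 0.796). Gata2, a factor of early mast cell and basophil development, was at 490.4, 506 and 504 CPM with luciferase and at 584, 564 and 593 with SETBP1-D868N. It was at 53.5, 54.4, 55.1 and 61.3 CPM with DMSO and at 278, 277, 329 and 303 with PF-9363. Its groups were apart in both comparisons, with the carriers of SETBP1-D868N and the PF-9363 libraries higher (log2 fold changes 0.21 and 2.40). Mitf, a factor of mast cell maturation, was at 24.999, 26.1 and 25.5 CPM with luciferase and 16.1, 16.5 and 17.1 with SETBP1-D868N, and at 11.0, 13.9, 8.80 and 11.9 with DMSO and 45.2, 47.2, 51.2 and 44.9 with PF-9363. It was lower and then higher, again without overlap (-0.62 and 2.05).

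Irf8 (-0.29 and 1.04), Spi1 (PU.1, -0.27 and 0.67) and Bhlhe40 (-0.71 and 0.37) fell with SETBP1-D868N and rose with PF-9363, the last rise being lost with library size alone as the scaling (edgeR adjusted p = 0.0663). With that scaling 4 of the 12 factors rose and 5 fell with SETBP1-D868N. It lowered all log2 fold changes with PF-9363 by 0.23 at the median and cut the share of rising genes among all called from 48.1% to 36.2%; with SETBP1-D868N it raised that share from 51.9% to 62.1%. The counts for the 10 genes stayed at 4 higher and 5 lower, and at 9 higher and none lower.

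Markers of cell types that could hold these genes were read beside them. The marker lists, too, were chosen with earlier results of these data known. Of the 8 mast cell markers, among them the granule proteases Cpa3, Cma1, Mcpt4 and Tpsb2, all 8 fell with SETBP1-D868N, and their summed level was 2724 to 2932 CPM with luciferase and 1630 to 1789 with SETBP1-D868N. With PF-9363 6 of 6 tested rose, with sums of 632 to 805 CPM with DMSO and 3486 to 4418 with PF-9363, while Mrgprb1 and Mrgprb2, markers of connective tissue mast cells, had at most 3 counts in every library of the second experiment. The basophil markers Mcpt8 and Prss34 rose with SETBP1-D868N (log2 fold changes 0.48 and 1.00), and the sum of the 3 basophil markers was 1855 to 1872 CPM with luciferase and 3076 to 3137 with SETBP1-D868N. With PF-9363 Prss34 rose (0.77) and so did Itga2 (2.15), but Mcpt8 did not pass the test (-0.14, edgeR adjusted p = 0.0980), and the sums were 472 to 624 CPM with DMSO and 628 to 700 with PF-9363. The third basophil marker, Itga2, was at 7.61, 6.24 and 6.69 CPM with luciferase and 4.27, 5.12 and 6.40 with SETBP1-D868N and did not pass (log2 fold change -0.38, edgeR adjusted p = 0.0564), though it was called lower by DESeq2 and limma-voom. The mast cell markers had the direction of Fcer1a, Il1rl1, Hpgds and Alox5ap in both comparisons, and 2 of the 3 basophil markers had that of Ms4a2 in each. With SETBP1-D868N, Ms4a2, Cd200r3, Hdc and Slc18a2 rose while all 8 mast cell markers fell. The direction of the mast cell markers was shared by most markers of monocytes and macrophages and of dendritic cells, given below. The part of all these markers in the results above was not tested.

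The lists for other cell types were read in the same way. The 9 markers of monocytes and macrophages, cells that also express Alox5, Alox5ap and Fcer1g, all fell with SETBP1-D868N (sums of 1113 to 1146 and 814 to 867 CPM; the fall of Ly6c2 was lost in 5 of 14 alternatives, with adjusted p from 0.0533 to 0.258). With PF-9363 7 of them rose and 1, Ly6c2, fell, with a median log2 fold change of 2.59. Ly6c2 made up most of the summed level with DMSO (sums of 1379 to 1503 CPM with DMSO and 1605 to 1715 with PF-9363), and without it the sum of the other 8 was 217 to 263 CPM with DMSO and 1230.1 to 1368 with PF-9363. Of 5 dendritic cell markers, 4 fell with SETBP1-D868N (sums of 1564 to 1652 and 791 to 953 CPM), and 2 of 3 tested rose with PF-9363 (157 to 185 and 796 to 1005 CPM). The fall of Itgax was lost with a replicate block (edgeR adjusted p = 0.0707) and without SETBP1-D868N replicate 3 (0.0686).

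Of the 9 neutrophil markers, 7 fell with SETBP1-D868N and 2 rose, Elane and Mpo, which are proteins of early granulocytes. Their sums did not overlap, at 24156 to 25146 CPM with luciferase and 15797 to 18237 with SETBP1-D868N. With PF-9363 3 rose (Ltf, Cxcr2 and Ly6g), 3 fell (Elane, Mpo and Camp) and 3 did not pass, at sums of 17379 to 20594 CPM with DMSO and 16668 to 18105 with PF-9363. With library size alone as the scaling, 3 rose and 5 fell. Of these 9, the counts of Elane are given because it fell the most: 14936, 13574, 16222 and 16063 with DMSO and 19, 29, 2 and 9 with PF-9363, a choice made after the values were seen.

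Eosinophil markers, of cells that express Ltc4s, split with SETBP1-D868N, with 1 of 5 rising and 1 falling (sums of 638 to 688 and 515 to 642 CPM). With PF-9363 1 of 4 tested rose and 3 fell (552 to 716 and 242 to 338 CPM). Of the megakaryocyte markers, 1 of 6 tested rose and 4 fell with SETBP1-D868N (424 to 434 and 371 to 406 CPM), and 3 of 4 rose and 1 fell with PF-9363 (74.4 to 87.4 and 412 to 471 CPM). Among these, the rise of Pf4 was lost in 8 of 16 alternatives (edgeR or limma-voom adjusted p = 0.0542 to 0.298), and its groups overlapped. Of 7 stem and progenitor markers, 2 rose and 5 fell with SETBP1-D868N (365 to 374 and 313 to 328 CPM), and 4 rose and 1 fell with PF-9363 (135 to 145 and 272 to 320 CPM). Erythroid markers were low, but 3 of 6 tested rose with SETBP1-D868N, at sums of 9.77 to 11.1 CPM with luciferase and 19.8 to 21.1 with SETBP1-D868N, and 1 of 2 rose with PF-9363 (4.16 to 6.39 and 6.83 to 13.1 CPM). Of the T, NK and innate lymphoid cell markers, 1 of 4 tested rose (Nkg7) and 2 fell (Il7r and Cd3g) with SETBP1-D868N, at sums of 84.2 to 88.8 and 94.7 to 99.2 CPM. With PF-9363 Il7r and Gata3 rose and Nkg7 fell, at sums of 45.8 to 60.2 and 75.02 to 103.7 CPM. Within that list, Cd3e and Cd8a had at most 3 counts in every library, and the fall of Cd3g was lost in 5 of 14 alternatives (adjusted p = 0.0605 to 0.148). Of the 5 B cell markers, 1 of 2 tested, Pax5, fell with SETBP1-D868N, at sums of 4.73 to 4.99 and 4.77 to 5.39 CPM. This fall was lost in 3 of 13 alternatives (edgeR adjusted p = 0.0621 to 0.0807). Only Cd79b could be tested with PF-9363, and it fell from 86, 54, 83 and 101 counts with DMSO to 0, 0, 0 and 2. The part of all these values in the results was not tested.

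**Figure D5:**
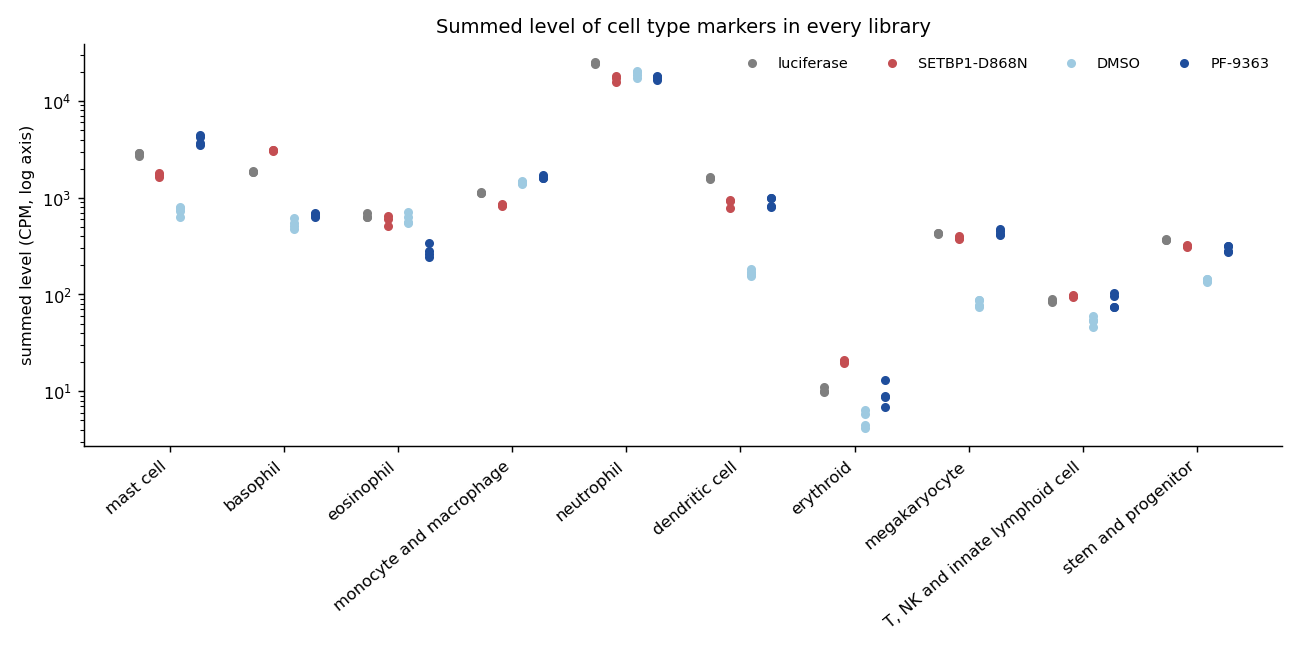
Summed level (CPM, log axis) of the markers of 10 cell types in every library, coloured by group. The B cell markers are not drawn, and the experiments were scaled separately. Mast cell markers lie lower with SETBP1-D868N than with luciferase and higher with PF-9363 than with DMSO, and basophil markers lie higher with SETBP1-D868N than with luciferase.

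The pattern of each gene over the 14 libraries was compared with that of 11206 other genes, as Pearson's r of log2 CPM after the mean of each experiment was subtracted. These r are descriptions: within an experiment the points share depth and group, and the large difference between DMSO and PF-9363 carries most of them. The genes most like Fcer1a were Atf3, Csf2rb2 and Lmna (all with r = 0.997), and those most like Cd200r3 were Impact (r = 0.998), Gata2 (0.998) and its relative Cd200r4 (0.998). For Ms4a2 they were Padi2 (r = 0.991), Tmed5 (0.991) and Dapp1 (0.990), for Il1rl1 Ehbp1l1, Rgl1 and Sgms1 (each 0.998 or above), and for Hdc Cdkn2a (0.996), Cd200r3 (0.995) and Tal1 (0.994). Slc18a2 was most like Plcl2, Psmb10 and Tmem251, Alox5 like Pld3, Sesn2 and Ralgds, Alox5ap like Arl4c, Rnf114 and Tyrobp, and Hpgds like Irf7, Zswim6 and Fnip1. Ltc4s stood apart, with Tbc1d8 (r = 0.912), Nod1 (0.898) and Ngp (0.880) as the nearest. Among the 10 genes themselves, Ltc4s had r between -0.32 and 0.15 with the 9 others, and the 9 others had r of 0.823 (Ms4a2 with Alox5ap) to 0.996 (Fcer1a with Il1rl1) with each other.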

How the data were processed

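Reads were counted by the authors, who deposited whole-number counts per gene symbol, 1 table for each experiment and 1 column for each library; 0 columns were left unmapped. The submitters' processing notes name STAR, DESeq2, GRCm38 and mm10 without roles or versions. The counting program, annotation, strand handling and treatment of duplicates are not given in the sources used here. Per the labels' protocols, RNA input was 500 ng with the Watchmaker mRNA kit for the luciferase and SETBP1-D868N libraries, and 100 ng with library preparation by Novogene for the others. The experiments were therefore scaled and tested separately.

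Low genes were removed with filterByExpr (edgeR 4.0.16, R 4.3.3; minimum count 10, minimum total 15), scaling was by TMM, and groups were compared with the quasi-likelihood test with robust estimation and group as the only factor. Benjamini-Hochberg adjustment covered all genes tested, with calls made at an adjusted p under 0.05. SE is the absolute log2 fold change over the square root of F. The fit was tested on simulated data, where the recovery of 90% of 2-fold changes first required was not reached over all genes; it was reached for genes with a mean count of at least 50, a condition set after that result. A count of 0 was read as at most 3 counts. Ratios were tested by exact permutation (scipy 1.17.1).

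Alternatives were RLE size factors, library size alone, a filter of 1 count in any library, a mean count of 10 or more, DESeq2 (1.42.0), limma-voom (limma 3.58.1), no robust estimation, a replicate block, and leaving out each library. The 10 genes and all lists were chosen with earlier results of these data known. All 10 are named; from each pathway list up to 5 genes are named, those called in both comparisons first and then those with the largest change, and the order by size among more than 5 was added after the data were seen. GENCODE M21 gave positions and exon lengths, RefSeq the promoters.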

Additional observations from a re-analysis of the deposited data

Results flagged for a closer look

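In the DMSO group the second library stood apart for Slc18a2, the vesicular amine transporter, at 31.4 CPM against 25.5 to 25.9 CPM in the 3 others. The gap to its nearest neighbour was 0.938 of the whole range, above Dixon's 95% critical value for 4 libraries. Chance puts about 5% of groups above that value, and each of the 10 genes was looked at in the DMSO and PF-9363 groups. Without DMSO replicate 2 the log2 fold change of Slc18a2 with PF-9363 was 3.15 (SE 0.081), beside 3.08 (SE 0.081) with it.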

How the results depend on the processing

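The counts of the 10 genes called higher or lower were 4 and 5 with SETBP1-D868N under each of 14 alternatives, and 9 and 0 with PF-9363 under each of 16. The counts over all genes stayed within 1.5 times of those given. Of 140 single values with SETBP1-D868N, 139 kept their direction and side of the threshold, and Alox5 turned from -0.039 to 0.0099 with library size alone. Of 160 values with PF-9363, 158 did, and Ltc4s turned from -0.038 to 0.020 without PF-9363 replicate 3 and to 0.0045 without PF-9363 replicate 4, in a range of -0.11 to 0.020 over the libraries left out. The median of the 10 genes became -0.15 with SETBP1-D868N and 1.78 with PF-9363 with library size alone, and 2.12 with PF-9363 without DMSO replicate 2. Among ratios within libraries, the group quotient of Slc18a2 to Hdc with SETBP1-D868N turned from 1.02 to 0.996 without SETBP1-D868N replicate 1 (range over the libraries left out 0.996 to 1.05), and that of Ltc4s to Alox5ap from 0.989 to 1.006 without SETBP1-D868N replicate 2 (range 0.961 to 1.006). The cause was not tested. The ratios, their pairs and the medians were added after the data were seen. Same-numbered libraries did not deviate together (r of -0.097 to -0.037 and of -0.040 to 0.0075), so replicate numbers were not taken as pairs; with a replicate block 6640 in place of 7448 genes were called with SETBP1-D868N and 10124 in place of 10228 with PF-9363, and all calls of the 10 genes were kept. In the second experiment Ltc4s and Hpgds rest on 60 to 126 and 73 to 376 counts per library, which limits their precision.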

Other observations

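The DMSO libraries and the SETBP1-D868N libraries of the first experiment were transduced with the same virus by their labels, though Setbp1 had 3 counts in all 4 DMSO libraries together and 67 in the 3 SETBP1-D868N libraries. They come from separately scaled experiments with different RNA input, library preparation and solvent treatment, which cannot be told apart, so their values are set side by side without a test. Hdc was at 579 to 632 CPM with SETBP1-D868N and at 80.6 to 94.0 CPM with DMSO, Ms4a2 at 348 to 360.4 and 50.7 to 60.5 CPM, and Alox5 at 573 to 602 and 124 to 141 CPM. Alox5ap, at 314 to 322 and 298 to 327 CPM, and Hpgds, at 10.9 to 12.6 and 6.84 to 11.5 CPM, had overlapping ranges. Ltc4s lay close, at 11.97 to 12.8 and 9.72 to 11.6 CPM. Within libraries the count ratio of Alox5ap to Alox5 was 0.521 to 0.561 with SETBP1-D868N and 2.32 to 2.41 with DMSO, and that of Slc18a2 to Hdc was 0.280 to 0.307 and 0.275 to 0.344.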
